A study of Mus musculus with 6 samples.

Results

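The collagen genes were examined in liver sinusoidal endothelial cells of NICeCA mice and of wild type mice. The members were the protein-coding rows of the deposited gene table whose symbol has the form Col, a number, the letter a and a number. This gave 44 genes of 51165 rows, of which 22052 were protein-coding. Liver sinusoidal endothelial cells form the porous wall of the smallest vessels of the liver. The cells came from livers of C57BL/6 NICeCA mice and C57BL/6 wild type mice aged 7 to 8 weeks, with 3 libraries of each genotype. All mice, wild type ones included, had received tamoxifen by the intraperitoneal route, and the labels name activation of Notch signalling as its purpose. The labels give neither the promoter or recombinase behind the NICeCA genotype nor whether animals were pooled. They number the NICeCA libraries 1, 2 and 3 and the wild type libraries 1, 3 and 4. Whether the libraries stand for separate animals is not stated, and the p-values therefore cover only how far these libraries differ, which can include technical differences.

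Collagens are secreted or membrane-bound proteins whose chains wind around each other into helical trimers. Fibrillar collagens build tensile fibres, type IV collagen forms the sheet of basement membranes, type VI collagen forms beaded filaments, and further classes decorate fibrils, form other networks or span the plasma membrane. In healthy liver the sinusoid wall lacks a continuous basement membrane, and hepatic stellate cells are the best known source of fibrillar collagen when the organ scars.

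Library totals lay between 26254649 and 30034191 counts. Ribosomal RNA rows took 0.494% to 1.93% of the counts of the NICeCA libraries and 1.11% to 5.40% of those of the wild type libraries. The labelled cell type was checked on 11 markers shared by endothelial cells, such as Pecam1 and Cdh5, and on 11 markers of sinusoidal endothelium, such as Stab2 and Lyve1, none of them at 0. Levels are given in CPM, the library-scaled count after edgeR's TMM factors. The endothelial markers summed to 15199, 14908 and 10464 CPM in the NICeCA libraries and to 16061, 15624 and 14927 CPM in the wild type libraries. The sinusoidal markers summed to 22070, 17382 and 12443 CPM in the NICeCA libraries, against 25058, 26102 and 26016 CPM in the wild type libraries. All 11 sinusoidal markers had a negative fold change, with a median log2 value of -0.54, where 48.4% of all tested genes had a positive one. For 8 of the 11 every NICeCA library lay below every wild type library, as for 11.8% of all tested genes. edgeR called none of them, and DESeq2, which called 1.89% of all genes lower, called Clec4g, Fcgr2b and Maf lower. Hey1, a transcription factor gene that Notch signalling switches on, had 24.5, 33.1 and 39.3 CPM in the NICeCA libraries and 5.19, 6.06 and 6.31 CPM in the wild type libraries, and rose by 2.46 ± 0.20 on the log2 scale (edgeR adjusted p = 0.0367, and 0.0625 to 0.316 with any library other than NICeCA library 1 left out).

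Collagen transcripts were led by a single pair of genes. Type IV chains held 70.5% to 75.3% of all collagen counts in the NICeCA libraries and 59.2% to 70.9% in the wild type libraries, nearly all of it from Col4a1 and Col4a2. All collagen genes together took 0.365%, 0.445% and 0.348% of the counts of the 3 NICeCA libraries, against 0.311%, 0.374% and 0.273% of those of the 3 wild type libraries. The means were 0.386% ± 0.0521 and 0.319% ± 0.0508 (SD, n = 3 each), and the groups overlapped (exact two-sided permutation test, p = 0.3, where 0.1 is the smallest p that 3 against 3 allows). A level of 1 RPKM, the deposited measure scaled by both gene length and library total, averaged over all 6 libraries, was reached by 18 of the 44 genes.

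**Figure D1:**
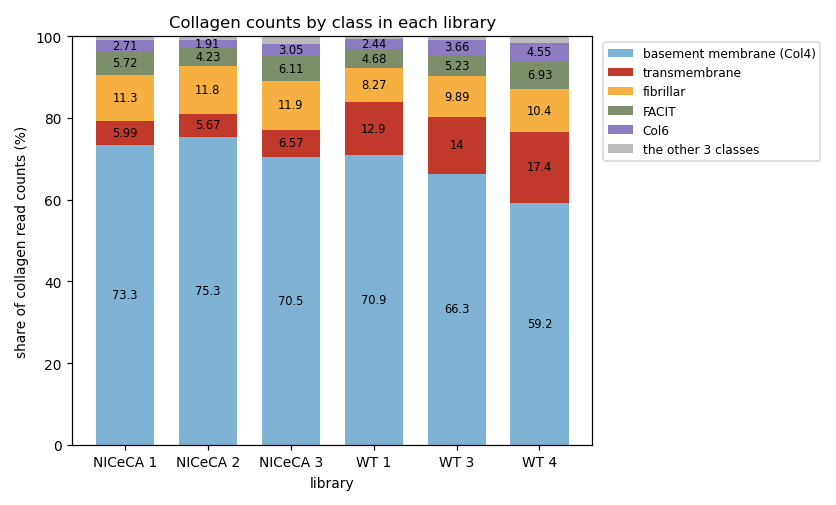
Share of all collagen counts (percent, y axis) held by each collagen class, by library, with the NICeCA libraries left of the wild type libraries. Type IV chains hold the largest share in all 6 libraries, and the transmembrane share lies between 5.67% and 6.57% in NICeCA libraries and between 12.9% and 17.4% in wild type libraries.

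Expression of NICeCA cells was compared with that of wild type cells by edgeR's quasi-likelihood test on the counts, fitted to all 19795 genes that passed its filter on low counts, with p-values adjusted over all of them by the Benjamini-Hochberg method and a threshold of 0.05. Fold changes are NICeCA over wild type on the log2 scale, given with their standard error. Of the 44 collagen genes 34 passed the filter. edgeR called 0 of them, where it called 0.0455% of all tested genes (0.0253% higher and 0.0202% lower in NICeCA cells), and the smallest adjusted p of a collagen gene was 0.0706, for Col13a1. Its unadjusted p was under 0.05 for 11 collagen genes, 9 higher and 2 lower in NICeCA cells, beside 16.5% of all tested genes (9.12% higher and 7.38% lower). DESeq2, run on the same counts, called 4 collagen genes higher and 2 lower, or 17.6% of those tested, where it called 5.6% of all genes, 3.71% higher and 1.89% lower. limma voom called none. In 11 of the 34 genes the groups did not overlap, 9 with every NICeCA library above every wild type library and 2 with every one below, which is 32.4% beside 23.4% of all tested genes (11.6% above and 11.8% below).

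The 6 genes that DESeq2 called were Col1a1, Col1a2, Col5a3 and Col6a5, all higher in NICeCA cells, and Col13a1 and Col6a3, both lower. Fold changes were positive for 28 and negative for 6 of the 34 tested genes, with a median of 0.42, beside a median of -0.014 over all tested genes, of which 48.4% were positive. The filter touches this count and the shares of collagen genes called, under an unadjusted p of 0.05 or without overlap given above. Of the tested genes, Col6a4, Col6a5, Col6a6, Col8a2, Col12a1 and Col16a1 reached the count minimum in more NICeCA than wild type libraries, and all 6 had positive values with a median of 1.38. Among them, Col6a5 and Col6a6 had no overlap and an unadjusted edgeR p under 0.05, and DESeq2 called Col6a5. The 18 genes of at least 1 RPKM had 14 positive and 4 negative values and a median of 0.23, while the 16 tested genes under that level had 14 positive and 2 negative values and a median of 0.60.

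**Figure D2:**
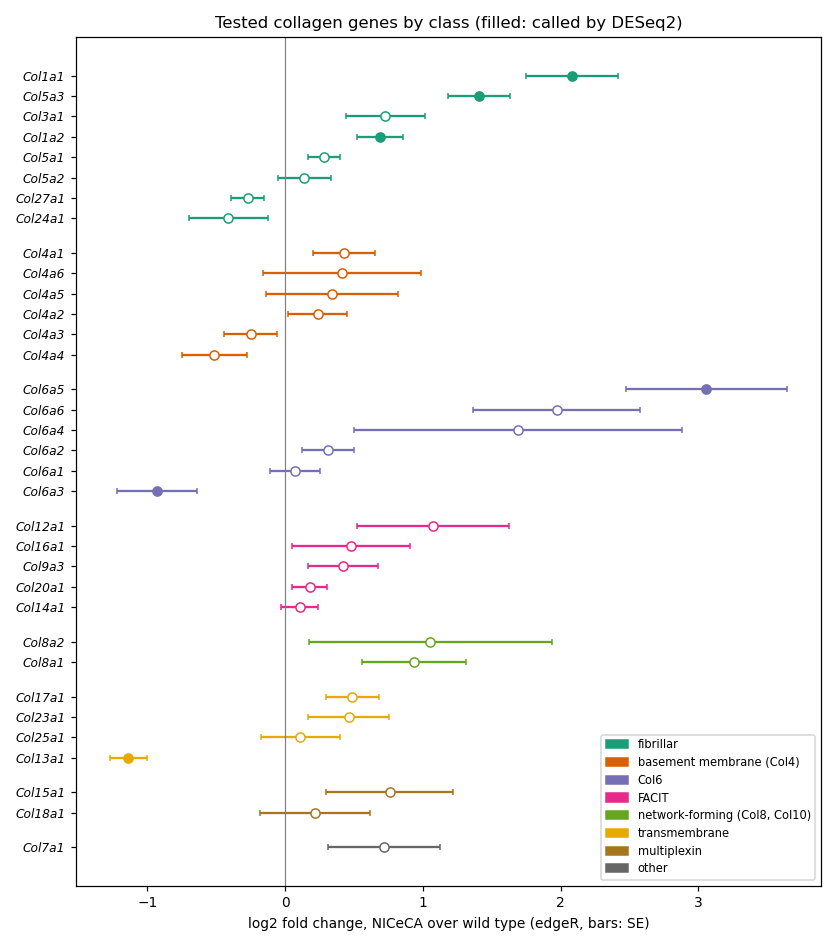
Fitted log2 fold change (NICeCA over wild type, x axis) of the 34 tested collagen genes with its standard error, grouped by class (FACIT: collagens that sit on fibrils), with filled circles for the genes that DESeq2 called. Values run from -1.14 for Col13a1 to 3.06 for Col6a5, and 28 lie above 0; edgeR called none of them.

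Type IV collagen has 6 chains, encoded as 3 pairs of genes that lie head to head. Col4a1 and Col4a2 encode the chains of the common basement membrane trimer and were the most abundant collagen transcripts in every library. Their rows in the table end 2 bases apart on chromosome 8, and the gap is 71 bases for Col4a3 and Col4a4 on chromosome 1 and 1292 bases for Col4a5 and Col4a6 on the X chromosome. The promoter windows of the leading pair are shown because both genes are read from the same stretch of DNA. Each window runs from 250 bases before to 50 after a RefSeq start (GRCm38.p6) and is written 5′ to 3′ on the strand of the gene. For Col4a1, Col13a1, Col5a3 and Col6a5 the RefSeq entry of the gene extends upstream of the start used, from which positions are counted. Capitals mark every match on either strand to the GC box GGGCGG, the CCAAT box and the TATA box TATAAA. They also mark the E-box CACGTG bound by Hey and Hes proteins, and GTGGGAA, the core of the site bound by RBPJ, the DNA-binding partner of Notch. The Col4a1 window is chr8:11312777-11313076 on the minus strand and the Col4a2 window chr8:11312555-11312854 on the plus strand.
Col4a1: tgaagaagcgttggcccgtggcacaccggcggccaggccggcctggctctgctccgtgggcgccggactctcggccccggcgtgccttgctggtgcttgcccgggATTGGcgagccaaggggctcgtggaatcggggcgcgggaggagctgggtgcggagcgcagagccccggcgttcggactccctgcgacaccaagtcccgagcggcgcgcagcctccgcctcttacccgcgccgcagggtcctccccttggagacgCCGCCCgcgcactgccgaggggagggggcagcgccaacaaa
Col4a2: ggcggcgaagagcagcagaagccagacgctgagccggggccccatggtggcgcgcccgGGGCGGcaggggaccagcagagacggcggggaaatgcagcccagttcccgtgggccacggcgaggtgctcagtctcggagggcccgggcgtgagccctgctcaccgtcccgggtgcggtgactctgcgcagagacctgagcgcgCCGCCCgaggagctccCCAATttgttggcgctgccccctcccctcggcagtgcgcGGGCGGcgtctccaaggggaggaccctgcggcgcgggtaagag
The windows overlap by 78 bases. The first shows a CCAAT match 145 bases before the start and a GC box 9 bases after it, and the second shows GC boxes at -192, -48 and 7 and a CCAAT match at -32. The GC box downstream of each start is the same site, read from either strand.

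Col4a1 had 1593, 2035 and 1427 CPM in NICeCA libraries 1, 2 and 3 and 1371, 1439 and 954 CPM in wild type libraries 1, 3 and 4. The lowest NICeCA library lay below the highest wild type library, so the groups overlapped, and the fold change was 0.43 ± 0.22 on the log2 scale (edgeR adjusted p = 0.394). Col4a2 had 1003, 1246 and 869 CPM in the NICeCA libraries and 942, 1024 and 677 CPM in the wild type libraries, with a log2 value of 0.24 ± 0.21 (edgeR adjusted p = 0.626). Per length, Col4a1 averaged 261 ± 44.8 RPKM in NICeCA cells and 183 ± 39.2 RPKM in wild type cells (SD, n = 3 each). In both genes NICeCA library 2 was the highest of the 6 and wild type library 4 the lowest.

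The ratio between the pair was steadier than either gene. Col4a1 over Col4a2 in RPKM was 1.54, 1.58 and 1.59 in the NICeCA libraries and 1.41, 1.36 and 1.37 in the wild type libraries. The groups did not overlap and their means were 1.57 ± 0.0279 and 1.38 ± 0.0265 (SD, n = 3 each), a difference of 0.19 on the log2 scale. The exact two-sided permutation test gave p = 0.1, the smallest this design allows, and 0.25 after Benjamini-Hochberg adjustment over the 5 chain ratios computed. The Gm15418 row lies within Col4a1 on the opposite strand and held 6167 counts beside 254266 of Col4a1; whether the counting used strand is not given in the sources used here.

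The minor type IV chains were far less abundant. Col4a3 and Col4a4, chains of the trimer best known from kidney filters, had negative values of -0.25 ± 0.19 and -0.51 ± 0.24. Col4a3 shares its position with an opposite-strand transcript, ENSMUSG00000097564.2, whose row held 1997 counts beside 1496 of Col4a3, so its level is uncertain. Col4a5 had 8.15, 5.95 and 16.2 CPM in the NICeCA libraries and 4.41, 6.94 and 12.6 CPM in the wild type libraries. Its log2 value was 0.34 ± 0.48 (edgeR adjusted p = 0.774). Its neighbour Col4a6 had a value of 0.41 ± 0.58. In these 2 genes NICeCA library 3 and wild type library 4 were the highest of their groups, and so they were for the summed markers of bile duct cells. Those markers had 387, 117 and 849 CPM in the NICeCA libraries and 269, 388 and 759 CPM in the wild type libraries. Hepatocyte, mesothelial and neutrophil markers were highest in the same library of each group, so the pattern is not particular to bile duct markers. The part of these cells in the result was not tested. The ratios Col4a3 over Col4a4 and Col4a5 over Col4a6, computed after the data were seen, overlapped between the groups (log2 differences of 0.26 and 0.020, exact two-sided permutation p = 0.3 and 1).

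**Figure D3:**
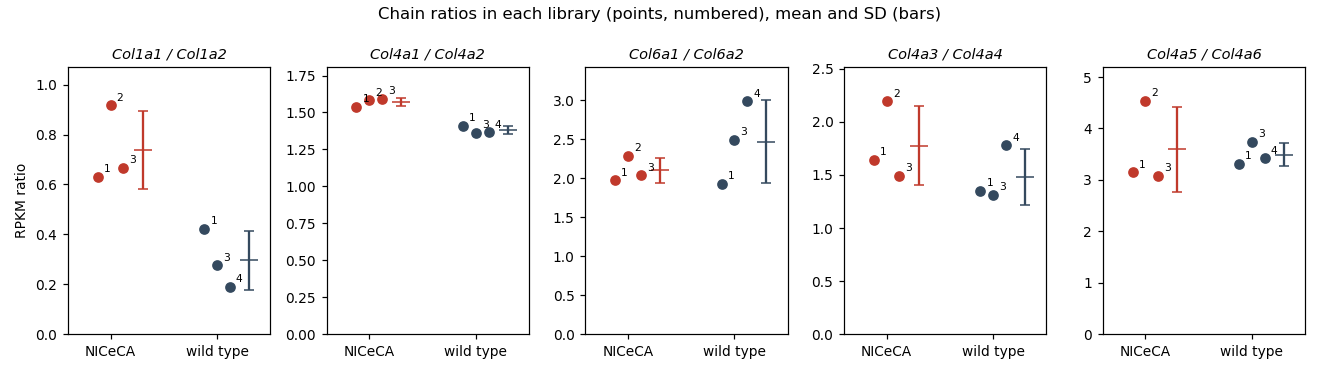
RPKM ratio (y axis, from 0) between the chains of 5 collagen pairs, with a numbered point for each library, NICeCA left of wild type, and bars at the mean and SD of each genotype (n = 3). The ratios Col1a1 over Col1a2 and Col4a1 over Col4a2 are higher in every NICeCA library than in every wild type library, and the other 3 ratios overlap.

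The transmembrane class held the collagen gene with the smallest p-value. Col13a1 encodes a collagen that spans the plasma membrane and is found at sites of cell adhesion. Its promoter window, chr10:61979059-61979358 on the minus strand (GRCm38.p6, RefSeq), is shown because it belongs to the most abundant gene that DESeq2 called.
Col13a1: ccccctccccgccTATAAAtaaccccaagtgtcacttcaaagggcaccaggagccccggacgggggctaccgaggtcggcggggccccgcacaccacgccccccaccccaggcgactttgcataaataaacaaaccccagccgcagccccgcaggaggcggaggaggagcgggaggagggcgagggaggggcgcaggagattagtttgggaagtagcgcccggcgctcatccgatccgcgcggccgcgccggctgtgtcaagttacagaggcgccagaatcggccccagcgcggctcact
The TATAAA match in capitals lies 237 bases before the start, and 68.0% of the bases are G or C, beside a median of 52.7% over all RefSeq windows.

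Col13a1 had 204, 237 and 201 CPM in the NICeCA libraries, against 416, 517 and 480 CPM in the wild type libraries. The highest NICeCA library was below the lowest wild type library by a wide margin, and per length the means were 31.8 ± 2.58 RPKM in NICeCA cells and 66.1 ± 8.89 RPKM in wild type cells (SD, n = 3 each). The log2 fold change was -1.14 ± 0.13, so that NICeCA libraries held 0.454 of the wild type level. In whole isolates a smaller share of expressing cells and less RNA per cell cannot be told apart. edgeR's adjusted p of 0.0706 missed the threshold and DESeq2's, 6.46e-11, passed it. Over the 20 alternative fits the adjusted p ran from 4.81e-13 to 0.613. The highest value, here and in each such range below, came from the fit with the replicate number as a block. That fit takes the genotype difference only from libraries 1 and 3 of each genotype. The DESeq2 call held with any library left out, where edgeR's log2 value lay between -1.23 and -1.07. Without the filter on low counts edgeR called the gene (adjusted p = 0.0239). An opposite-strand row within Col13a1, LOC105245187, held 2331 counts beside 57796.

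The other 3 transmembrane genes had positive values and under 10 CPM. Col17a1, known from the junctions that fix epithelia to the basement membrane, had 4.92, 5.44 and 6.04 CPM in the NICeCA libraries and 4.31, 3.87 and 3.50 CPM in the wild type libraries, with no overlap and a log2 value of 0.49 ± 0.19 (edgeR adjusted p = 0.282). Col23a1 had 4.65, 5.47 and 9.03 CPM in the NICeCA libraries and 5.61, 4.18 and 4.11 CPM in the wild type libraries (0.46 ± 0.30), and Col25a1 stayed under 1 CPM in all 6. With Col13a1 in the lead, the class took 6.08% ± 0.456 of the collagen counts of NICeCA cells and 14.8% ± 2.31 of those of wild type cells (SD, n = 3 each), without overlap (exact two-sided permutation test, p = 0.1).

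**Figure D4:**
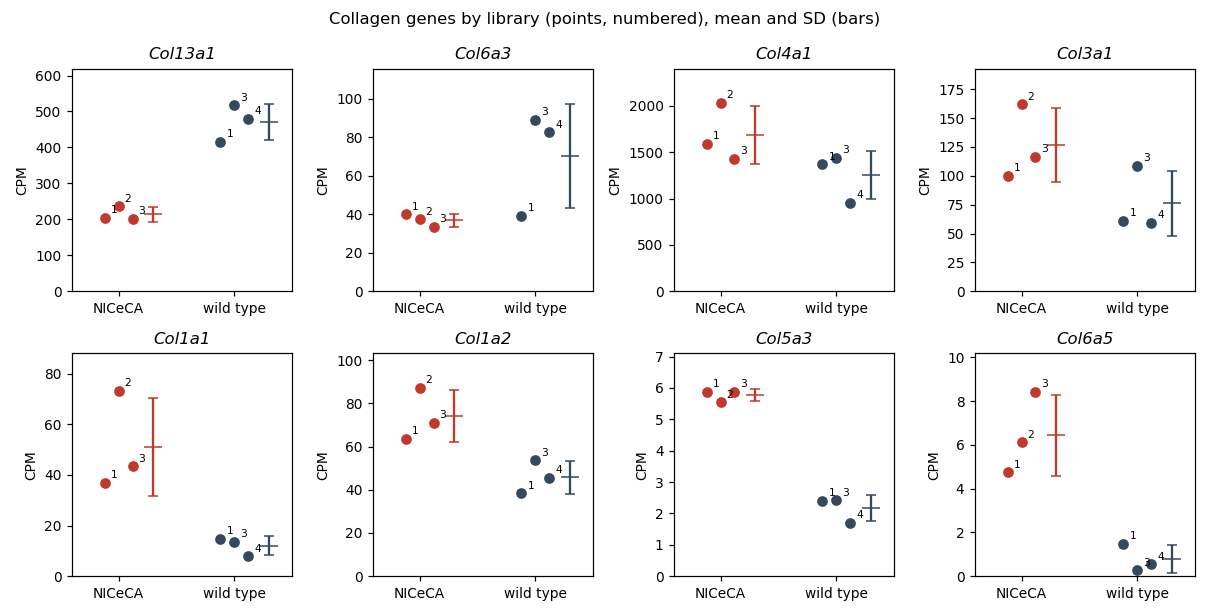
CPM (y axis, from 0) of Col4a1, Col3a1 and the 6 genes that DESeq2 called, with a numbered point for each library, NICeCA left of wild type, and bars at the mean and SD of each genotype (n = 3). Col13a1 separates the groups downward, Col1a1, Col1a2, Col5a3 and Col6a5 separate them upward, and Col6a3 overlaps through wild type library 1.

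Of the 11 fibrillar genes 8 were tested, 6 with positive and 2 with negative values and a median of 0.49. DESeq2 called 3 of them higher in NICeCA cells, beside 3.71% of all genes, and edgeR called none. The groups did not overlap for 4 higher and 1 lower, beside 11.6% and 11.8% of all tested genes. The class held 11.6% ± 0.333 of the collagen counts of NICeCA cells and 9.52% ± 1.11 of those of wild type cells (SD, n = 3 each), without overlap (exact two-sided permutation test, p = 0.1). Col1a1 and Col1a2 encode the chains of type I collagen, the main fibre-forming collagen of scarred tissue. Col1a1 had 36.8, 73.2 and 43.4 CPM in the NICeCA libraries, against 14.8, 13.6 and 7.90 CPM in the wild type libraries. Every NICeCA library lay above every wild type library, the 4.23-fold difference was 2.08 ± 0.33 on the log2 scale, and its adjusted p was 0.0970 by edgeR and 2.86e-07 by DESeq2, with 2.39e-07 to 0.613 over the 20 alternatives. Without the filter on low counts edgeR called it (adjusted p = 0.0278), and leaving out any library kept edgeR's log2 value between 1.73 and 2.27.

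Col1a2 had 63.7, 87.2 and 71.0 CPM in the NICeCA libraries and 38.3, 53.5 and 45.7 CPM in the wild type libraries. The groups did not overlap and the difference, 1.61-fold or 0.69 ± 0.17 on the log2 scale, was smaller than that of Col1a1. Its adjusted p was 0.177 by edgeR and 0.0171 by DESeq2, with 0.00957 to 0.613 over the 20 alternatives. The DESeq2 call was lost without NICeCA library 2 (adjusted p = 0.140), NICeCA library 3 (0.0765), wild type library 1 (0.0714) or wild type library 4 (0.0686).

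Type I collagen is usually assembled from more Col1a1 than Col1a2 chain. Here Col1a1 was the less abundant transcript per length in every library. The deposited Col1a1 row ends at base 94951867 of chromosome 11, before the RefSeq end at 94953042, while the Col1a2 row ends where RefSeq does. Reads beyond the end of the Col1a1 row may not have been counted, and the effect on the ratio was not tested. The RPKM ratio of Col1a1 over Col1a2 was 0.631, 0.917 and 0.668 in the NICeCA libraries and 0.422, 0.277 and 0.189 in the wild type libraries. It averaged 0.739 ± 0.156 in NICeCA cells and 0.296 ± 0.118 in wild type cells (SD, n = 3 each) without overlap, a log2 difference of 1.38 (exact two-sided permutation p = 0.1, adjusted over 5 ratios 0.25). The difference lay between 1.09 and 1.67 with any library left out. No RefSeq promoter window was found for Col1a1, which DESeq2 also called. The Col1a2 promoter window, chr6:4505368-4505667 on the plus strand (GRCm38.p6, RefSeq), is shown with that of Col5a3, chr9:20815018-20815317 on the minus strand, as the other fibrillar genes that DESeq2 called.
Col1a2: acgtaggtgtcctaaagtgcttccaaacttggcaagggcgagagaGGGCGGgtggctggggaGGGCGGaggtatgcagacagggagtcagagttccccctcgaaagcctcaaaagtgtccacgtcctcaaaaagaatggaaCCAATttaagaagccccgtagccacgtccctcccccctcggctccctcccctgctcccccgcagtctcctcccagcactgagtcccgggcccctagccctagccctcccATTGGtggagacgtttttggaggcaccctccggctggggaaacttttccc
Col5a3: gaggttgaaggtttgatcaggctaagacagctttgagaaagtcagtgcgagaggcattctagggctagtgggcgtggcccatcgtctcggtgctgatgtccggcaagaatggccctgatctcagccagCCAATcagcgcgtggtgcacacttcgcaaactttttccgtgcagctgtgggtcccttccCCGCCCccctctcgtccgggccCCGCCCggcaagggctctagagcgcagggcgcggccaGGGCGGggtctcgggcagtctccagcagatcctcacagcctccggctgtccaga
The first holds GC boxes 205 and 188 bases before the start and CCAAT matches at -109 and 0. The second holds a CCAAT match at -122 and GC boxes at -63, -41 and -4.

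Col5a3 encodes a minor chain of type V collagen, which is built into type I fibrils. It had 5.88, 5.54 and 5.88 CPM in the NICeCA libraries, against 2.40, 2.41 and 1.70 CPM in the wild type libraries, from 164 to 178 counts in NICeCA libraries and 47 to 68 in wild type libraries. The groups were far apart for their spread, with a 2.65-fold difference of 1.41 ± 0.22 on the log2 scale. The adjusted p was 0.0970 by edgeR and 1.76e-05 by DESeq2, the lowest of the 20 alternatives, of which the highest was 0.613, and DESeq2 called it with any library left out.

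The other fibrillar genes differed less. Col3a1, the chain of type III collagen of soft tissues and vessels, had 100, 162 and 117 CPM in the NICeCA libraries and 60.9, 109 and 59.1 CPM in the wild type libraries. NICeCA library 2 was the highest of all 6 for this gene, as for Col1a1, Col1a2, Col4a1 and Col4a2. The groups overlapped through wild type library 3 and its log2 value was 0.73 ± 0.28, with an adjusted p of 0.275 by edgeR and 0.143 by DESeq2. DESeq2 called it without wild type library 3 (adjusted p = 0.00416), with 0.00416 to 0.653 over the 20 alternatives. Col5a2, its neighbour at a gap of 24624 bases, had 90.8, 87.9 and 61.4 CPM in the NICeCA libraries and 58.2, 82.1 and 77.7 CPM in the wild type libraries (0.14 ± 0.19, edgeR adjusted p = 0.768). Col5a1, the main partner of Col5a2, had 45.9, 48.9 and 48.0 CPM in the NICeCA libraries and 34.9, 44.6 and 37.8 CPM in the wild type libraries, without overlap (0.28 ± 0.12, edgeR adjusted p = 0.296). Col27a1, a fibrillar collagen of cartilage, was on the other side, with 57.5, 52.7 and 44.2 CPM in the NICeCA libraries and 60.7, 65.5 and 60.2 CPM in the wild type libraries (-0.27 ± 0.12, edgeR adjusted p = 0.324). Col24a1 had -0.41 ± 0.29.

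Mesenchymal cells are a known source of fibrillar collagens, so markers of such cells stand beside these values. The source of the fibrillar transcripts in these libraries was not tested. In whole isolates of this kind, fewer cells of a type and less RNA per cell cannot be told apart. The 18 markers of stellate cells and fibroblasts, among them Lrat, Des, Pdgfrb and Dcn, were all detected, with 5 positive and 13 negative log2 values and a median of -0.61. They summed to 1182, 911 and 1057 CPM in the NICeCA libraries and to 1218, 1603 and 1960 CPM in the wild type libraries. No NICeCA library reached the lowest wild type library, but the gap between NICeCA library 1 (1182 CPM) and wild type library 1 (1218 CPM) was narrow. Col1a1, Col1a2 and Col5a3 were higher in each NICeCA library than in any wild type library. edgeR called none of the 18, and DESeq2, which called 1.89% of all genes lower, called 5 lower, namely Lrat, Ecm1, Hand2, Dcn and Lum.

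The smooth muscle list had mostly positive values. Of its 10 genes 8 were tested, 6 with positive values, with a median of 0.79. Myh11, the smooth muscle myosin heavy chain, had 14.2, 17.6 and 18.3 CPM in the NICeCA libraries, against 5.51, 5.67 and 5.48 CPM in the wild type libraries, and rose by 1.59 ± 0.15 on the log2 scale (edgeR adjusted p = 0.0367). That call was lost when any library other than NICeCA library 1 was left out (edgeR adjusted p = 0.0712 to 0.340), at log2 values of 1.52 to 1.6. edgeR, which called 0.0253% of all tested genes higher, called only Myh11 of the list. DESeq2, which called 3.71% of all genes higher, called Acta2, Myh11, Tagln and Myl9 higher. The whole list summed to 192, 178 and 155 CPM in the NICeCA libraries and 165, 176 and 135 CPM in the wild type libraries, which overlapped. Smtn held most of that sum, with 134, 109 and 85.7 CPM in the NICeCA libraries and 127, 136 and 96.8 CPM in the wild type libraries (-0.14 ± 0.20). Without Smtn, left out after the data were seen, the sums were 58.4, 69.0 and 69.6 CPM in the NICeCA libraries and 37.4, 39.4 and 38.4 CPM in the wild type libraries. The part of these cells in the collagen values was not tested.

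**Figure D5:**
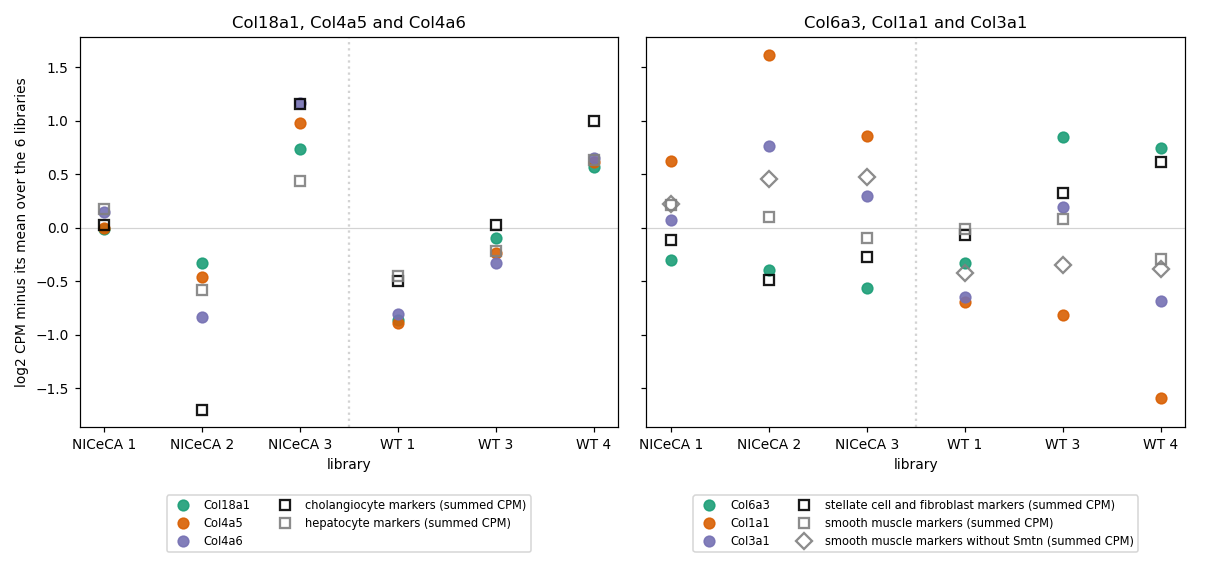
log2 CPM in each library minus its mean over all 6 libraries (y axis) for collagen genes (circles) and for the summed CPM of cell type markers (squares, and diamonds for the smooth muscle list without Smtn), NICeCA libraries left of wild type libraries. Col1a1 is higher in NICeCA libraries, and the stellate and fibroblast markers are lower, with NICeCA library 1 close to wild type library 1. The smooth muscle list overlaps between the genotypes as a whole and not without Smtn, a gene left out after the data were seen. Col18a1, Col4a5, Col4a6, the cholangiocyte (bile duct) markers and the hepatocyte markers are highest in NICeCA library 3 and wild type library 4.

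Type VI collagen forms beaded filaments from a Col6a1 chain, a Col6a2 chain and a variable chain, which is Col6a3 or the product of Col6a4, Col6a5 or Col6a6. Of the 6 tested genes 5 had positive values, with a median of 1.0. The filter touches this count, since Col6a4, Col6a5 and Col6a6 reached the count minimum in more NICeCA than wild type libraries. The constant chains differed little. Col6a1 had 29.3, 23.9 and 33.5 CPM in the NICeCA libraries and 22.0, 30.5 and 29.9 CPM in the wild type libraries (0.07 ± 0.18, edgeR adjusted p = 0.878). Col6a2 had 21.5, 15.1 and 23.8 CPM in the NICeCA libraries and 16.6, 17.7 and 14.5 CPM in the wild type libraries (0.31 ± 0.19, edgeR adjusted p = 0.464). Their RPKM ratio overlapped between the groups (log2 difference of -0.21, exact two-sided permutation p = 0.4).

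The variable chains had values on both sides of 0. Col6a3, the usual one, had 39.9, 37.4 and 33.4 CPM in the NICeCA libraries and 39.3, 89.1 and 82.6 CPM in the wild type libraries. Wild type library 1 lay among the NICeCA libraries, so the groups overlapped, and the log2 value was -0.93 ± 0.29 with an adjusted p of 0.214 by edgeR and 0.0440 by DESeq2, and 3.73e-12 to 0.664 over the 20 alternatives. Without wild type library 1 DESeq2 gave a log2 value of -1.22 and an adjusted p of 3.73e-12. With any other library left out DESeq2 did not call the gene, with adjusted p-values of 0.0930 to 0.348 for NICeCA libraries 1, 2 and 3 and wild type libraries 3 and 4.

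Col6a5 had the highest fold change among the tested collagens, at a low level. It had 144, 181 and 254 counts in the NICeCA libraries, against 42, 7 and 15 in the wild type libraries, or 6.43 ± 1.86 CPM in NICeCA cells and 0.764 ± 0.637 CPM in wild type cells (SD, n = 3 each). The groups did not overlap and the difference was 8.33-fold, 3.06 ± 0.59 on the log2 scale, with an adjusted p of 0.139 by edgeR, 1.10e-05 by DESeq2, and 9.46e-13 to 0.613 over the 20 alternatives. edgeR called it without the filter on low counts (adjusted p = 0.0466), and its log2 value was 2.66 to 3.96 with any library left out. Its window, chr9:105960594-105960893 on the minus strand (GRCm38.p6, RefSeq), is shown for that reason.
Col6a5: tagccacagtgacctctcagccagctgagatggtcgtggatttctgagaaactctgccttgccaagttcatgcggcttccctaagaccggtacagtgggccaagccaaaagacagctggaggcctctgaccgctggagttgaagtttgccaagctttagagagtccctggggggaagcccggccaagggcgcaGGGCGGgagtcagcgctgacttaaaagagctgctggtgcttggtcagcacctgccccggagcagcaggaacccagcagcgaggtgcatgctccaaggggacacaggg
The GC box in capitals lies 57 bases before the start used, base 105960643, while the RefSeq entry of the gene reaches upstream to base 105962463. Col6a5 lies between Col6a4, at a gap of 29674 bases, and Col6a6, at a gap of 27824 bases. Col6a4 had 35, 20 and 19 counts in the NICeCA libraries and 21, 0 and 0 in the wild type libraries (1.69 ± 1.19). Col6a6 had 11, 18 and 32 counts in the NICeCA libraries and 5, 2 and 7 in the wild type libraries (1.97 ± 0.61, edgeR adjusted p = 0.213). All 3 neighbours thus had positive values at few counts, and they are related in sequence, so reads shared between them may be split in ways the table does not show.

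Fibril-associated collagens, the FACIT class, were led by Col14a1, which binds the surface of type I fibrils. It had 189, 171 and 185 CPM in the NICeCA libraries and 140, 184 and 182 CPM in the wild type libraries, which overlapped (0.11 ± 0.13, edgeR adjusted p = 0.740). Col14a1 was thus among the most abundant collagen transcripts with 26.5 ± 1.69 RPKM in NICeCA cells and 23.2 ± 3.92 RPKM in wild type cells (SD, n = 3 each). Of the 9 genes of the class 5 were tested, all with positive values and a median of 0.42, and neither edgeR nor DESeq2 called one. The filter touches this count through Col12a1 and Col16a1, which reached the count minimum in more NICeCA than wild type libraries. Col20a1 had 11.2, 11.1 and 11.8 CPM in the NICeCA libraries and 10.6, 9.70 and 9.88 CPM in the wild type libraries, without overlap (0.18 ± 0.13); a transcript on the same strand, ENSMUSG00000070461.3, held 1257 counts beside its 1851, so its level is uncertain. Col9a3, a chain of the type IX collagen of cartilage, had 91, 70 and 111 counts in the NICeCA libraries and 68, 60 and 57 counts in the wild type libraries (0.42 ± 0.26). Col12a1 and Col16a1 had 1.07 ± 0.55 and 0.48 ± 0.43 from at most 27 counts a library.

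The multiplexins Col18a1 and Col15a1 sit in basement membrane zones, and Col18a1 is the source of the fragment endostatin. Col18a1 had 23.9, 19.1 and 40.0 CPM in the NICeCA libraries and 13.2, 22.5 and 35.7 CPM in the wild type libraries (0.22 ± 0.40, edgeR adjusted p = 0.832). As with Col4a5, NICeCA library 3 and wild type library 4 were the highest, and the spread within each genotype exceeded the difference between them. Col15a1 had 1.72, 1.38 and 0.598 CPM in the NICeCA libraries and 0.918, 0.575 and 0.685 CPM in the wild type libraries (0.76 ± 0.46).

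Among the network-forming genes Col8a1, a chain of the type VIII collagen of vessel walls and the cornea, had 7.69, 19.4 and 16.1 CPM in the NICeCA libraries and 8.05, 9.54 and 5.01 CPM in the wild type libraries. NICeCA library 1 lay among the wild type libraries (0.93 ± 0.38, edgeR adjusted p = 0.289), and without it DESeq2 called the gene (adjusted p = 0.00722, with 0.00722 to 0.735 over the 20 alternatives). Its partner Col8a2 had 19, 9 and 22 counts in the NICeCA libraries and 9, 0 and 13 counts in the wild type libraries (1.05 ± 0.88). Col7a1, the anchoring fibril collagen, had 2.38, 4.43 and 4.12 CPM in the NICeCA libraries and 3.43, 1.76 and 1.44 CPM in the wild type libraries (0.72 ± 0.41).

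The 10 collagen genes that were not tested had few or no reads. Col9a1, Col11a2, Col19a1 and Col26a1 had 0 counts in all 6 libraries. Col2a1, Col9a2, Col10a1, Col11a1, Col22a1 and Col28a1 had between 0 and 14 counts in any library. The Col11a2 and Col16a1 rows lie on unplaced or alternate sequences of the authors' assembly and not on a chromosome, and their values cover those rows alone. Col10a1 lies within Nt5dc1.

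RefSeq windows were found for 35 of the 44 genes, 38 windows in all, which were set beside all 32851 windows of the table. GTGGGAA was present in 5.26% of the collagen windows, those of Col10a1 and Col4a5, and in 6.38% of all windows. CACGTG was in 0 collagen windows and in 7.15% of all windows. TATAAA was in 13.2% of the collagen windows and 13.6% of all, CCAAT in 34.2% and 37.4%, and GGGCGG in 60.5% and 35.7%. These shares describe letters within 300 bases and not binding.

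Collagen chains need enzymes and chaperones of the endoplasmic reticulum, and these were examined as a list of 21 genes, all tested. It had 6 positive and 15 negative log2 values and a median of -0.11, and edgeR called none. DESeq2 called 2 lower, where it called 1.89% of all genes lower. P4ha2, a catalytic subunit of prolyl 4-hydroxylase, had 12.6, 13.6 and 10.6 CPM in the NICeCA libraries, against 20.4, 24.9 and 31.7 CPM in the wild type libraries. The groups did not overlap, at -1.07 ± 0.19 with an adjusted p of 0.122 by edgeR and 0.000359 by DESeq2. The other was P3h2, a prolyl 3-hydroxylase of type IV collagen, at -1.22 ± 0.40 with an adjusted p of 0.225 by edgeR and 0.0428 by DESeq2. The most abundant genes of the list were P4hb, the shared subunit of prolyl 4-hydroxylase, at -0.12 ± 0.12, and Serpinh1, the collagen chaperone, at -0.13 ± 0.19.

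Enzymes that process and crosslink secreted collagen numbered 12 tested of 13, with 6 positive and 6 negative values and a median of -0.07. DESeq2, which called 1.89% of all genes lower, called only Loxl4 among them, a lysyl oxidase. Loxl4 had 8.62, 8.61 and 6.94 CPM in the NICeCA libraries and 14.5, 16.6 and 11.9 CPM in the wild type libraries (-0.83 ± 0.18, adjusted p = 0.155 by edgeR and 0.00628 by DESeq2). The most abundant were the lysyl oxidase Loxl2, at -0.49 ± 0.25, and Pcolce, an enhancer of procollagen cleavage, at -0.30 ± 0.18. Proteoglycans and other proteins of fibrils had 9 of 12 genes tested, 3 positive and 6 negative, with a median of -0.34. DESeq2 called Dcn (-0.73 ± 0.21, adjusted p = 0.0366, and 0.203 by edgeR) and Lum (-1.49 ± 0.44, adjusted p = 0.0144, and 0.203 by edgeR) lower, both proteoglycans that bind type I fibrils and both also on the stellate and fibroblast list. Sparc, a matrix protein that binds collagen, and Bgn, a further proteoglycan, were the most abundant, at -0.03 and -0.43 on the log2 scale.

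Collagen receptors had 9 of 11 genes tested, 4 positive and 5 negative, with a median of -0.05. Itga2, the alpha subunit of a collagen-binding integrin, had 2.54, 2.94 and 2.89 CPM in the NICeCA libraries, against 0.600, 1.03 and 0.433 CPM in the wild type libraries. The groups did not overlap (2.01 ± 0.37), and its adjusted p was 0.124 by edgeR and 0.000296 by DESeq2. DESeq2, which called 3.71% of all genes higher, called no other receptor. Mrc1, the mannose receptor through which sinusoidal cells take up collagen, and Itgb1, the shared beta subunit, were the most abundant, at -0.54 ± 0.23 and -0.17 ± 0.13.

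Other cell types were present to different degrees. Hepatocyte markers summed to 437 to 886 CPM in NICeCA libraries and 479 to 1012 CPM in wild type libraries. Among 9 tested there were 4 positive and 5 negative values. DESeq2, which called 1.89% of all genes lower, called Cyp2e1 lower. Mesothelial markers summed to 33.2 to 104 CPM in NICeCA libraries and 27.4 to 48.1 CPM in wild type libraries, with 6 of 6 values positive. Kupffer cell markers summed to 1635, 1160 and 236 CPM in the NICeCA libraries and to 150, 201 and 2164 CPM in the wild type libraries, and each of the 10 overlapped between the groups. Neutrophil markers summed to 2785, 3951 and 14958 CPM in the NICeCA libraries and to 836, 123 and 2554 CPM in the wild type libraries. All 10 had positive log2 values, with a median of 3.37, where 48.4% of all tested genes had a positive one. For 6 of them every NICeCA library lay above every wild type library, as for 11.6% of all tested genes. DESeq2, which called 3.71% of all genes higher, called Elane, Camp and Prtn3 higher. B cell markers summed to 14.6 to 18.5 CPM in NICeCA libraries and 2.56 to 6.99 CPM in wild type libraries. The 6 tested of 8 all had positive values without overlap, with a median of 2.09, beside 11.6% of all tested genes without overlap upward. DESeq2 called 4 of them higher, beside 3.71% of all genes, among them Cd79b, Ms4a1 and Pax5. At such low wild type sums, some B cell markers may have passed the filter on low counts through the NICeCA libraries alone. The filter may thus touch these counts. edgeR called no gene of these 5 lists. Their part in the collagen values was not tested.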

How the data were processed

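RNA of liver sinusoidal endothelial cells was sequenced as paired reads on an Illumina HiSeq, per the labels' protocols. The authors deposited whole-number counts per gene for each library and, per the file headers, an RPKM value beside each count. The deposited RPKM values equal the count scaled by the listed gene length and by the library total, to within a relative difference of 5e-06 for counts of at least 50. Neither aligner nor counting program is named, and genome build and strand setting are likewise not given in the sources used here. Of the 44 collagen rows 14 have coordinates identical to RefSeq on GRCm38.p6 and 42 lie on the same chromosome.

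The whole table was fitted with edgeR 4.0.16 (R 4.3.3): filterByExpr with a minimum count of 10, TMM scaling, glmQLFit and glmQLFTest, without covariates. Benjamini-Hochberg adjustment covered all tested genes at a threshold of 0.05. DESeq2 1.42.0, limma 3.58.1 voom, other scalings, other filters, a robust prior, a replicate block and leaving out each library were alternatives. Leaving out libraries under DESeq2 was added after the data were seen. The procedure was also run on simulated counts, drawn for each gene independently at the fitted dispersions. The outcome is not given here, and such a run does not test how calls hold in libraries of mixed cell content. Shares and chain ratios were compared by exact permutation tests with scipy 1.17.1. Values in every library are given for genes called by either tool, the up to 3 tested genes of highest RPKM in a class and the 5 of smallest p; from each list of the collagen pathway, the called genes and the 2 of highest CPM are named. Further genes are given by fold change, range or count. The collagen genes and all lists were chosen with earlier results of these data known. At library totals of 26254649 to 30034191 counts, counting error limits the precision of the lowest genes.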

Additional observations from a re-analysis of the deposited data

How the results depend on the processing

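The number of genes called over the whole table depended on the tool: 9 by edgeR as reported, 1107 by DESeq2, 5 by limma voom, 111 by edgeR without the filter on low counts, 0 with the replicate number as a block, and 0 to 14 with a library left out. For collagen genes, DESeq2 called 4 higher and 2 lower and edgeR without the filter 2 higher and 1 lower, against 0 in the reported fit. Under DESeq2 with a library left out, 389 to 1454 genes, 3 to 5 collagen genes higher and 1 to 2 lower were called. The numbers pair only libraries 1 and 3, whose deviations from the group means correlated at -0.213 and -0.246. With so few libraries the deviations of a group are tied to each other, and the labels do not say what the number means. Whether it marks a shared batch or pairing therefore cannot be told. NICeCA library 2 and wild type library 4 have no partner number, so the block takes the genotype difference from libraries 1 and 3 alone. With so little left to estimate the spread, a lack of calls there says little about any gene. The block called 0 collagen genes and gave Col4a2 a log2 value of -0.073. It also gave log2 values of 0.10 for Col4a1, 0.84 for Col18a1, 1.05 for Col4a5, 1.5 for Col1a1, 0.41 for Col3a1, 0.34 for Col7a1, 0.35 for Col8a1 and 2.37 for Col8a2, none of them called.

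Over 182 values of named collagen genes in 8 alternatives without left-out libraries, 172 kept their direction and side of the threshold, 9 passed it (6 by DESeq2, 3 without the filter) and 1 changed sign. With a library left out, edgeR's log2 values ran from -0.018 to 0.17 for Col14a1, -0.15 to 0.62 for Col18a1, -0.18 to 0.82 for Col4a5, -0.0035 to 0.30 for Col5a2 and -0.071 to 0.19 for Col6a1, and the median over tested collagen genes from 0.27 to 0.49. The cause of these differences was not tested. Col6a4, Col6a6 and Col8a2 had under 10 counts in some libraries, so counting error weighs more on their values than on those of abundant genes.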
